A study of Gallus gallus with 4 samples.

Results

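ZNF462 is described here from its exon parts in cranial headfolds of chick embryos exposed to alcohol or to saline. Exon parts are the pieces into which a gene is split at every annotated exon boundary. The members were all exon parts of the gene identifier to which the part at Z:55498149-55503634 belongs, 15 of 220717 exon parts, under 1 of 24513 identifiers. The identifier joins 2 overlapping annotated genes, ENSGALG00000025769 and ENSGALG00000015451, and the name ZNF462 was taken from the table of microRNA-bearing exons in the study. It was chosen from the comparison of alcohol with saline in these same lanes, so every value of that comparison is a description. Where members were past a threshold in a fit over the whole table, their number is given only beside the share of all features past it, and it is no test of this gene.

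Both groups were embryos of the Special black strain, incubated for 27 hr (Hamburger-Hamilton stage 8 to 9). The labels give 3 to 4 somites and the methods of the study 4 to 7. They received isotonic saline or 0.43 mmol ethanol, a 90 min exposure at 52 mM. Headfolds were taken 6 hr from its start, in pools of 23. Each group was measured in 2 sequencing lanes, saline in lanes 6 and 7 of a single run and alcohol in lanes 5 and 6 of another. No run held both groups, so effects of treatment and of run cannot be told apart. No label says that the lanes of a group came from separate pools, so the spread between them may be technical.

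ZNF462 encodes a large nuclear protein with many C2H2 zinc fingers, which in mammals takes part in the organization of chromatin. Loss of 1 copy of the gene in humans causes Weiss-Kruszka syndrome, in which the face and skull, the tissues that arise largely from the cranial neural crest, are often affected. The chick gene also hosts gga-mir-6565, a microRNA. A microRNA is cut from a short hairpin, here within a longer host transcript, and it pairs with other messenger RNAs to lower their translation or stability. In a RefSeq table of a later chicken assembly, the gene of this microRNA also lay within ZNF462 on chromosome Z.

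The lanes held between 15388474 and 20951322 counts. Mitochondrial transcripts took 44.2% of the counts in each saline lane and 33.3% and 32.9% in the alcohol lanes. Over genes, the saline lanes agreed within sampling noise (chi-square per degree of freedom 1.04 over 16862 genes) and were counted as 1 library in the main fits. The alcohol lanes differed by more than sampling noise (5.68 over 16910 genes) and stayed 2 libraries. Tissue markers were not analysed here, because the sources used pair symbols with few identifiers.

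The identifier lay on the plus strand of chromosome Z of Gallus gallus 5.0 (Galgal5), from 55489590 to 55547342, and its 15 parts summed to 7540 bases. Part 3, the long part that the rule names, held 5486 of these bases (72.8%) and was the 43rd longest part of the table. Part 2, of 252 bases, and part 1, of 73 bases, lay 5′ of it. The 12 parts on its 3′ side summed to 1729 bases, and the longest of them was part 10, of 262 bases. Part 15, at 55547141-55547342, was the last, with 202 bases.

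Reads fell on the identifier in every lane. It held 1822 and 1814 counts in the saline lanes and 2674 and 2935 in the alcohol lanes. Relative to all counts of the lane, as CPM, this was 87.0 and 87.0 against 174 and 173. After TMM scaling, which sets the bulk of genes level between libraries, it was 98.3 and 98.1 CPM against 154 and 152. Lanes of a group differed little on either scale. Among the 14102 identifiers with at least 1 CPM in saline, the saline level stood at the 90.5th percentile, and the saline level per kb of length at the 63.7th percentile.

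The fitted log2 change in gene abundance, alcohol over saline, was 0.64 ± 0.15 (SE, 1 saline and 2 alcohol libraries), or 1.56-fold. With library size alone it was 0.99, or 1.99-fold, and that scaling moved the median of all genes by 0.35, from 0.01 to 0.36. With library sizes taken outside the mitochondrial genome it was 0.73, from 156 and 156 CPM in saline to 261 and 258 CPM in alcohol. The change was above those of 85.3% of the 18093 genes tested. Among the 748 tested genes of chromosome Z, where the median change was 0.20, it was above 75.3%. At a false discovery rate (FDR) of 0.1 in edgeR's quasi-likelihood fit, 27.3% of all genes tested were called, 15.6% higher and 11.7% lower in alcohol, and the gene was among those higher, which its choice from this comparison affects. In pooled tissue, a change in the number of cells of a type and a change in RNA per cell cannot be told apart.

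Most of the difference in gene counts lay in the long part. Without part 3, the identifier had 58.9 and 59.7 TMM-scaled CPM in saline and 59.9 and 61.1 in alcohol, and the log2 change was 0.03 ± 0.16 (SE). Without part 15 instead, the log2 change was 0.91 ± 0.15 (SE). Without both, it was 0.31 ± 0.17 (SE). On library size alone, the remainder without part 3 had 52.1 and 52.9 CPM in saline and 67.5 and 69.2 CPM in alcohol.

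**Figure D1:**
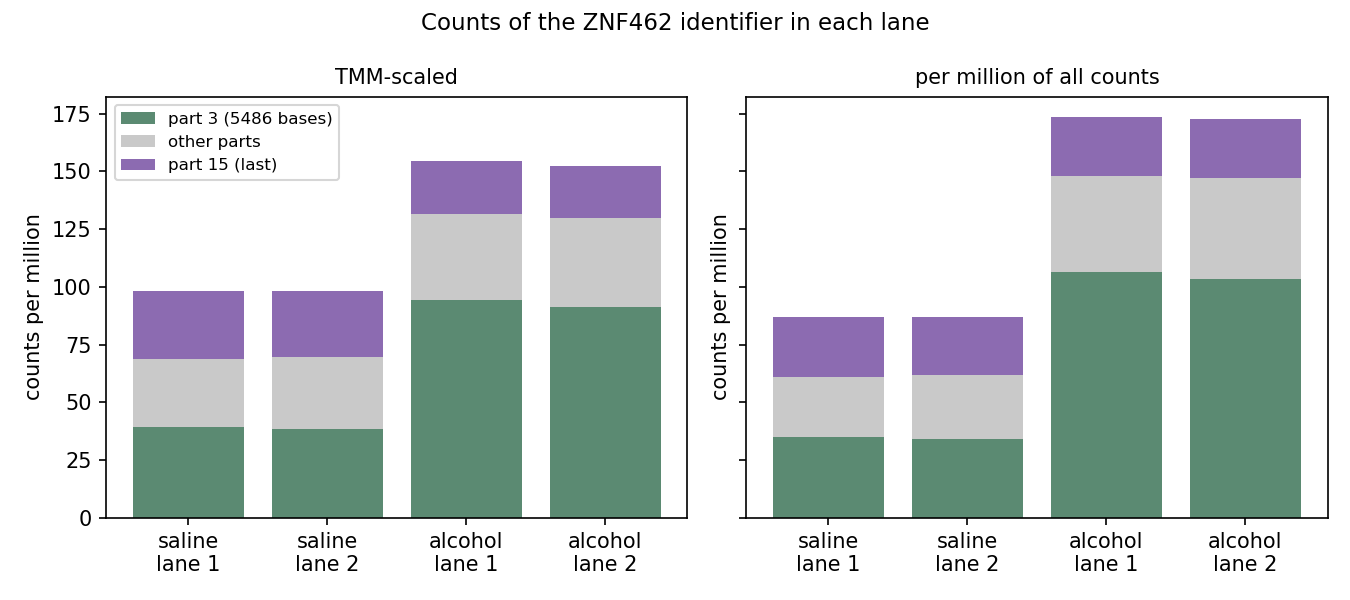
CPM of the ZNF462 identifier in each lane, TMM-scaled (left) and relative to all counts of the lane (right), stacked as part 3, the other parts and part 15. Under TMM scaling, part 3 rises from 39.4 and 38.5 CPM in the saline lanes to 94.5 and 91.3 CPM in the alcohol lanes, while the stack without it stays between 58.9 and 61.1 CPM.

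Most counts of the identifier lay in 4 of its parts, those with at least 5% of the counts in any lane. Part 3 held 730 and 711 counts in saline and 1636 and 1759 in alcohol. This was 40.1% and 39.2% of the counts of the identifier in the saline lanes and 61.2% and 59.9% in the alcohol lanes. With the lanes of a group summed, the share was 39.6% in saline (exact 95% interval 38.0% to 41.2%) and 60.5% in alcohol (59.2% to 61.8%). The intervals cover counting error only. In both groups the share of part 3 was below its share of the length, 72.8%.

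Part 15, the last, moved the other way. It held 546 and 528 counts in saline and 398 and 438 in alcohol. Its share was 30.0% and 29.1% in the saline lanes and 14.9% and 14.9% in the alcohol lanes. On library size alone, its level was 26.1 and 25.3 CPM in saline against 25.9 and 25.8 CPM in alcohol, and after TMM scaling 29.5 and 28.6 CPM against 23.0 and 22.7 CPM. The level thus fell under TMM scaling and not with library size alone (log2 change 0.01), whereas the share does not depend on the scaling. The fit on parts took its TMM factors over parts, while these CPM used factors over identifiers. The fitted log2 change of -0.59 ± 0.21 (SE) is therefore a larger fall than the CPM show.

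The other parts of at least 5% lay between them. Part 12, of 224 bases, held 214 and 203 counts in saline and 172 and 193 in alcohol, a share of 11.7% and 11.2% against 6.43% and 6.58%. Part 10 held 155 and 150 counts in saline and 191 and 222 in alcohol, a share of 8.51% and 8.27% against 7.14% and 7.56%. The share fell by far more for part 12 than for part 10.

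The remaining 11 parts were minor. In 8 of them, of 104 to 252 bases, counts ran from 10 to 51 per lane and shares from 0.549% to 2.15%. Part 1, at the 5′ end, had 0 and 1 counts in saline and 0 and 2 in alcohol, and with fewer than 10 counts in all it was not tested. Parts 4 and 5, at 55504493-55504568 and 55504569-55504593, had 0 counts in every lane. At 3 counts per lane, a count of 0 allows up to 0.143 to 0.195 CPM of counted fragments. This sets no limit on the transcription of such short parts.

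Parts 4 and 5 abut each other and part 6, which is the only such run in the identifier. Parts 4 and 5, of 76 and 25 bases, together have about the length of a microRNA hairpin, but the files do not say which of the joined genes they belong to. The study lists gga-mir-6565 under exon 3 of this identifier, the number that part 3 has here. Its list also takes in microRNAs within introns whose flanking exons were altered. Fragments that overlapped several parts had not been assigned in the counting, so 0 counts there do not show that the stretch was not transcribed. Of the 22240 parts of at most 76 bases that abut a neighbour, 71.1% had 0 counts in all lanes, against 25.2% of all parts. Among identifiers with at least 1000 counts, it was 65.4% of 14207 such parts. The mature microRNA itself was not measured by these libraries of poly-T selected mRNA.

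Among the 12 tested parts, the share of 2 was higher in both alcohol lanes than in both saline lanes, that of 5 was lower, and the shares of the other 5 overlapped. Over all 94274 parts tested for usage, 36.6% had a share higher in both alcohol lanes and 17.7% a share lower in both.

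**Figure D2:**
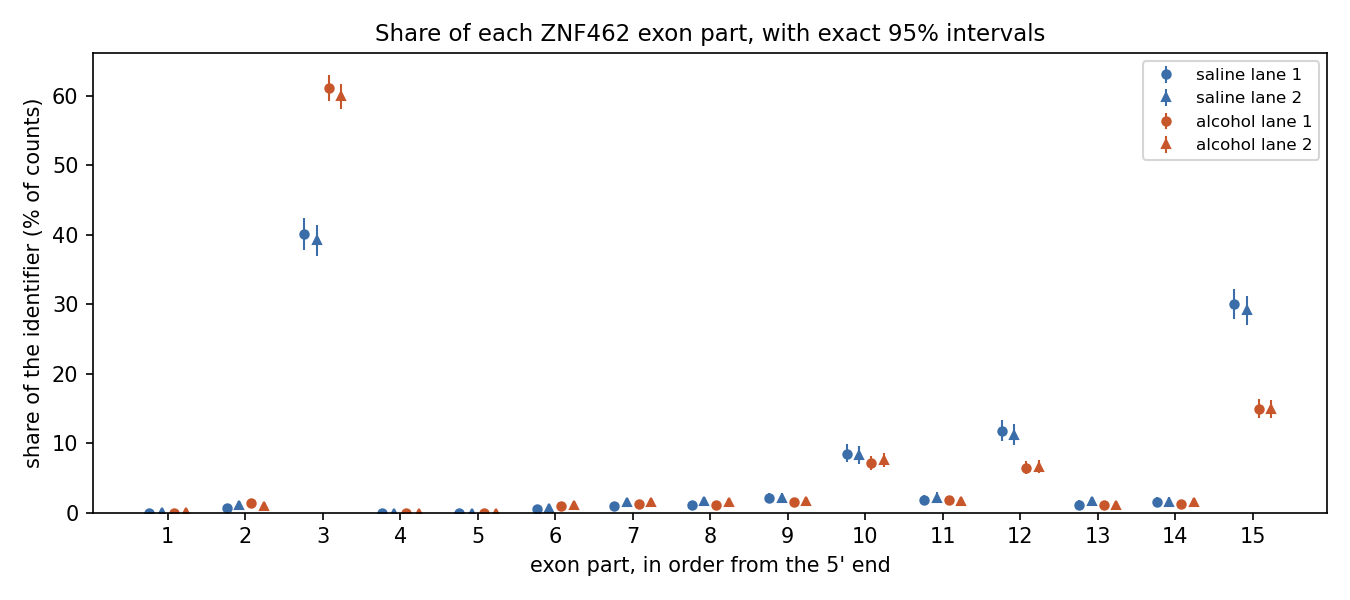
Share of each exon part in the counts of the ZNF462 identifier, in percent, for the 2 saline and 2 alcohol lanes, with exact 95% intervals that cover counting error only. Part 3 stands near 40% in saline and 60% in alcohol, part 15 near 30% and 15%, and lanes of a group lie close together.

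Exon usage is the change of a part relative to its gene. In edgeR's fit the log2 usage change of part 3 was 0.61 ± 0.19 (SE), that of part 15 was -0.99 ± 0.19 (SE), that of part 12 was -0.82 ± 0.21 (SE) and that of part 10 was -0.19 ± 0.22 (SE). In DEXSeq's model, where the comparison is with the remaining parts of the gene, the changes of parts 3, 15 and 12 were 1.23, -1.26 and -0.90. The gene total in edgeR's fit includes part 3 itself, and the value of part 3 was 0.61 there against 1.23 in DEXSeq's model. Of the 12 tested parts, 1 was past FDR 0.1 as higher (part 3) and 2 as lower (parts 12 and 15) in either model, counts that the choice of the gene from this comparison affects. Over all parts, edgeR called 4.87% (4.36% higher and 0.511% lower) and DEXSeq's model called 6.17% (4.62% higher and 1.55% lower).

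As features of their own, with TMM factors taken over parts, part 3 had a log2 abundance change of 1.01 ± 0.22 (SE) and part 15 of -0.59 ± 0.21 (SE). These changes are not on the scale of the gene change or of the TMM-scaled CPM, whose factors were taken over identifiers. Of the 12 tested parts, 2 were past FDR 0.1 as higher and 1 as lower in edgeR's quasi-likelihood fit, again a description, where 14.2% of the 98031 parts tested were called, 5.68% higher and 8.48% lower. The calls were parts 3 and 15 and part 6, which held 10 and 13 counts in saline and 27 and 30 in alcohol (log2 change 1.08 ± 0.39, SE) and is named because it was called. Without either alcohol lane, 0 of the 12 parts were called, 4 had an unadjusted p under 0.05 in each case, and DESeq2's Wald test on all lanes called 2. The fits without an alcohol lane took their spread from the saline lanes. With library size alone, 9 parts were called, all of them higher. Over all 98031 parts, 31872 were called with library size alone (30428 higher and 1444 lower) and 4564 by DESeq2's Wald test.

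Within a group, no part was called as different between lanes, a comparison that does not enter the choice of the gene. Fisher's exact test, two-sided, of each part against the rest of its identifier between the 2 lanes of a group called 0 of the 12 parts in either group at FDR 0.1, and 0 had an unadjusted p under 0.05. The lowest p was 0.0935 in saline (part 7, 16 and 27 counts) and 0.109 in alcohol (part 2, 38 and 28 counts, adjusted p = 0.850). For part 3 the p was 0.611 in saline and 0.352 in alcohol. Over the whole table this test called 0% of 68276 parts in saline and 0.649% of 78917 parts in alcohol. An unadjusted p under 0.05 was found for 2761 and 5500 of them. The 0 of 12 is thus near the share of all parts and is no trait of this gene. The test compares libraries, not conditions.

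Counts per base rose steeply towards the 3′ end of the gene among its 5 parts of at least 200 bases, but not over all parts. Of these 5, part 2 had 2.57 and 4.08 TMM-scaled CPM per kb in saline and 8.71 and 5.77 in alcohol, and part 3 had 7.18 and 7.01 against 17.2 and 16.6. Part 10 had 31.9 and 31.0 CPM per kb in saline and 42.1 and 44.0 in alcohol, part 12 had 51.5 and 49.0 against 44.3 and 44.7, and part 15 had 146 and 141 against 114 and 113. The level per kb increased from part 2 through parts 3, 10 and 12 to part 15 in each of the 4 lanes, and the rise was less steep in alcohol. The ratio of part 15 to part 3 per kb was 20.3 and 20.2 in the saline lanes and 6.61 and 6.76 in the alcohol lanes. The 7 tested parts under 200 bases had 3.85 to 21.5 CPM per kb over the lanes, below part 10 in each lane, and fragments across a part boundary had not been counted.

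**Figure D3:**
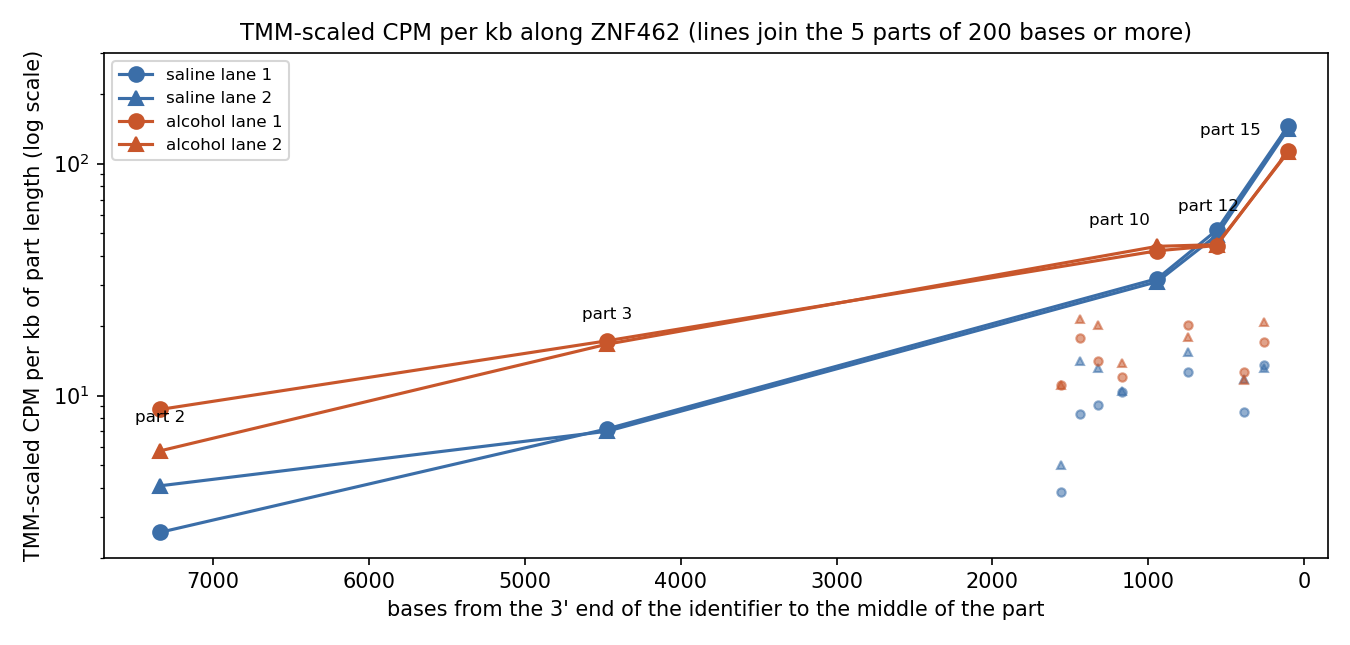
TMM-scaled CPM per kb of part length (log axis) against the distance in bases from the 3′ end of the ZNF462 identifier to the middle of each part, for the 2 saline and 2 alcohol lanes. Lines join parts 2, 3, 10, 12 and 15, and small markers show shorter parts with at least 10 counts in the lane. The alcohol lines lie above the saline lines at parts 2, 3 and 10 and below them at parts 12 and 15.

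A fall of the last part against the rest was common across genes. In identifiers with at least 1000 counts and several parts, the median ratio of the last part to all other parts per kb was 4.86 and 4.73 in the saline lanes and 3.81 and 3.65 in the alcohol lanes. For ZNF462 the ratio was 15.5 and 14.9 in saline and 6.35 and 6.37 in alcohol, above 83.2% and 82.4% of identifiers in saline and above 65.0% and 67.4% in alcohol. The ratio was lower in both alcohol lanes than in both saline lanes in 68.2% of 5944 identifiers and higher in 7.17%. On the log2 scale it fell by 1.26 in ZNF462, against a median of -0.41, and 1.36% of the identifiers had a lower value. The other parts include part 3, so this fall also holds the rise of part 3. Its rank is a description, since the gene was chosen from this comparison.

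Usage changes of the ZNF462 parts can be set beside those of all parts at a like distance from the 3′ end of their gene. The distance is counted from the 3′ edge of a part, and the classes are not matched for length or for the share a part holds in its gene. Last parts had a median log2 usage change of -0.08 (11695 parts), and 98.5% of them were above part 15. Among last parts of 200 to 500 bases, where part 15 belongs, the median was -0.12 (3139 parts). Parts with 1 to 2 kb of exon sequence downstream, as part 3 has, had a median of 0.40 (24973 parts), and 63.5% of them were below part 3. Part 3 has 5486 bases, so most of it lies further from the 3′ end than this class. At 4 to 8 kb the median was 0.49, and 56.5% were below part 3. The median was 0.01 at under 0.5 kb, where part 12 had -0.82, and 0.23 at 0.5 to 1 kb, where part 10 had -0.19. Of the 12 ZNF462 parts, 5 lay between the lower and upper quartile of all parts in their distance class (parts 2, 3, 6, 7 and 14), and 7 lay below the lower quartile (parts 8 to 13 and 15). Their usage is relative to a gene total that holds part 3, whose share rose in the comparison from which the gene was chosen. A low usage value is thus not a fall in level. With TMM factors over parts, 10 of the 12 had an abundance change above 0, and 4 a usage change above 0. Long parts moved less in this fit, where a part counts in the gene total it is compared with. Of the 19 tested parts of at least 5000 bases that were not the last of their gene, the median usage change was 0.09, and 84.2% were below part 3. The 3′ to 5′ balance of all genes, the mitochondrial share and the run moved together with treatment, and their part in the ZNF462 values cannot be told apart from it.

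**Figure D4:**
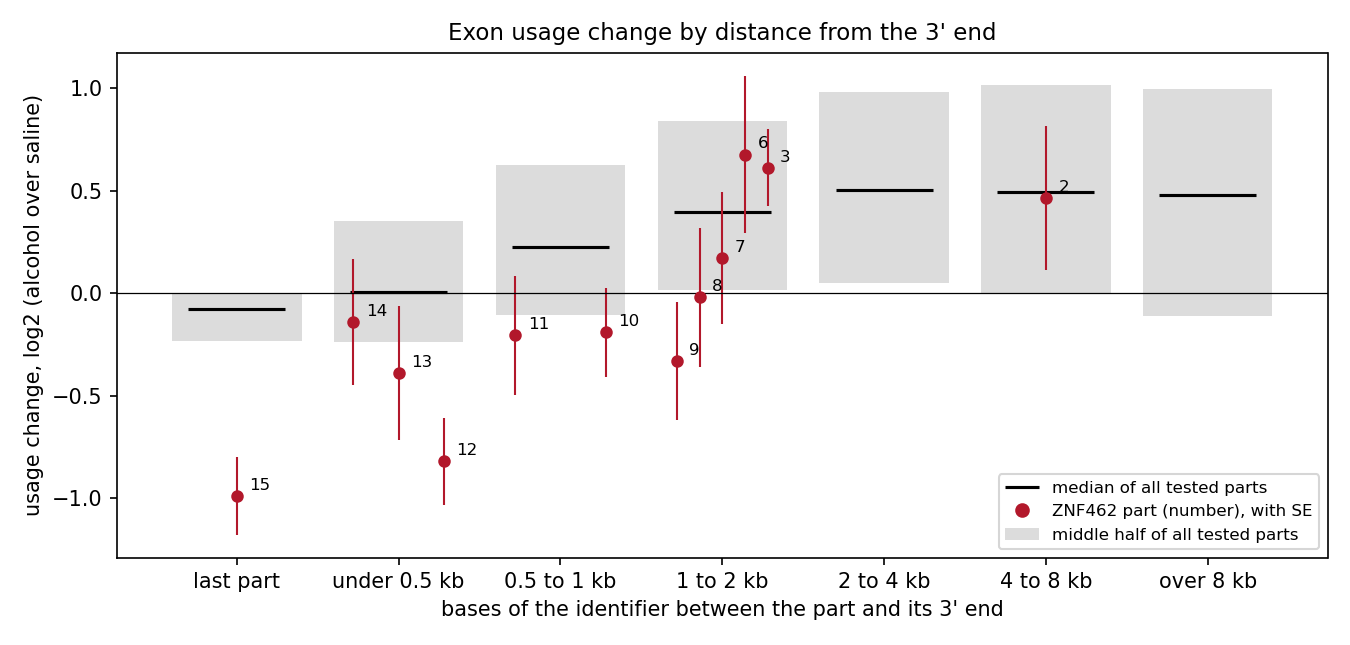
Log2 usage change, alcohol over saline, of the 12 tested ZNF462 parts (numbered points with SE) by the exon bases between a part and the 3′ end of its gene. Grey boxes span the middle range (lower to upper quartile) of all tested parts in each class and black lines their medians, which run from -0.08 for last parts to 0.51 at 2 to 4 kb. Parts 2, 3, 6, 7 and 14 lie inside their boxes, and the other 7 lie below theirs. Usage is relative to a gene total that holds part 3, so a low value is not a fall in level.

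The identifiers most like ZNF462 in level over the 4 lanes were sought by Euclidean distance of log2(TMM-scaled CPM + 1), among 18092 others. The nearest were ENSGALG00000007102, at a distance of 0.0713 and a log2 change of 0.66, and ENSGALG00000004420, at 0.112 and a log2 change of 0.56. Among the 55 identifiers that the tables of the study name, the nearest were the RNA helicase gene DHX30 at 0.848, the lipoprotein receptor gene LRP1 at 0.858 and the cell cycle kinase gene CDK6 at 0.959, at ranks 337, 350 and 466 of all. Their log2 changes were -0.03, 0.22 and 0.25, none of them past the threshold. All of these distances rest on the same 4 lanes, of both groups, so a very near identifier has a like log2 change by construction.

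ZNF462 is 1 of 17 genes that the study lists as hosts of microRNA exons, a list chosen on these samples and thus not independent evidence of any direction. Its log2 change was the second highest, after 0.65 for SLC41A1, which encodes a magnesium transporter, and before 0.58 for ATG2B, which acts in autophagy. The other 16 hosts ranged from -0.51 to 0.65 with a median of -0.16, against 0.01 over all genes tested. Of these 16, 2 were called higher (SLC41A1 and ATG2B) and 3 lower at FDR 0.1 in edgeR's fit. Over all 18093 genes tested, 15.6% were called higher and 11.7% lower. The 3 lower hosts were RRP12, a factor of ribosome assembly, the kinase gene CDK10 and ACTB, which encodes cytoplasmic actin. Partners of ZNF462 in chromatin were not analysed here, since the sources used pair none of the 12 listed symbols with an identifier.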

How the data were processed

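Poly-T selected, hexamer-primed libraries of paired reads (75 bases) were measured in 4 lanes. The count values deposited are whole, unscaled fragment counts for each part. The authors trimmed the reads, aligned them to Galgal5 (Bowtie2) and assigned them with featureCounts 1.5.2, ignoring strand, requiring both mates and leaving out fragments over several parts. Overlapping genes share an identifier, so their counts cannot be separated. A second deposited table, of the authors' own comparison (normalized counts, usage coefficients and fold changes of selected exons), holds 0 rows of ZNF462 and was not used.

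Counts were summed per identifier and fitted over the whole table with the quasi-likelihood method of edgeR 4.0.16 (R 4.3.3, TMM, diffSpliceDGE for usage), at 10 or more counts and an FDR of 0.1 (Benjamini-Hochberg). TMM factors were taken over identifiers for gene fits and CPM values, and over parts for part abundance and usage fits. Lanes of a group were summed where chi-square over df was under 1.1, except in fits with every lane as its own library or without an alcohol lane. The SE given for edgeR's fits is the absolute log2 change divided by the square root of the F statistic. DESeq2 1.42.0 gave the Wald test and DEXSeq's model. Python 3.11.15 with scipy 1.17.1 gave exact tests and intervals. Fits were also run on simulated data with the same dispersion for every feature and no run effect, which does not test the calls in these lanes. Named parts held at least 5% of the counts in any lane, and named like genes were the nearest 2 of all and the nearest 3 with a symbol. The gene, lists and tests were chosen with earlier results of these data known. Alternatives were other scalings, filters, tools and lanes left out. The alternatives that leave out part 3, part 15 or both were added after seeing the data.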

Additional observations from a re-analysis of the deposited data

How the results depend on the processing

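The log2 abundance change of ZNF462 was above 0 under every other scaling, filter, tool and set of lanes tried, at 0.62 to 0.65 without each lane in turn. The gene was chosen from this comparison, so this and the calls below are a description and no sign of stability. No gene fit used TMM factors taken over parts. With those factors, part 3 had an abundance change of 1.01 and a usage change of 0.61. The gap between them is about the gene change on that scale, and it is smaller than the 0.64 of the main fit. The gene was not called without part 3 (0.026) or without parts 3 and 15 (0.31), alternatives chosen after seeing the data, since part 3 held most of the difference. The usage change of part 3 was 0.60 to 0.63 without each lane in turn and 0.61 with no count filter, where it was not called. The difference in its share, alcohol minus saline, was 20.9 percentage points (20.3 to 21.6 without each lane), 2.74 on counts per kb, where short parts weigh as much as long ones, and 14.9 with part 15 left out of the denominator, also chosen after seeing the data. Of the 12 ZNF462 parts, 3 were called by the abundance test, 9 with library size alone and 0 to 4 without each lane in turn. The usage test called 3 of the 12, also with DEXSeq's model, against 4590 and 5818 of all 94274 parts.

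Over all genes, 4933 were called, against 7746 with every lane as its own library, 7826 with library size alone (7223 higher and 603 lower, against 2823 and 2110), 1747 by DESeq2's Wald test and 4115 to 7973 without each lane. The usage test called 4590 parts, against 9125 with every lane as its own library, 2729 with no filter and 1960 to 9093 without each lane. The part abundance test called 13885 parts (5569 higher and 8316 lower), against 31872 with library size alone (30428 higher and 1444 lower), 4564 by DESeq2's Wald test and 0 to 10766 without each lane. Without alcohol lane 1 or 2, it called 0 parts by edgeR, with 16636 and 17077 at an unadjusted p under 0.05. In the fits without an alcohol lane, the saline lanes stayed 2 libraries and the spread came from them alone. The counts of those fits thus rest on another set of libraries than the main fits. The causes were not tested. No paired analysis was possible because the replicate numbers only name lanes, and no pool or lane links a saline lane with an alcohol lane.

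The main fits rest on 3 libraries, and the spread in them on the 2 alcohol lanes. Neither tests nor intervals cover differences between embryos or pools. Depth limits the minor parts, which held 10 to 51 counts per lane.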
